A study of Populus alba x Populus glandulosa with 12 samples.

Results

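The KEGG orthology (KO) name CYP707A was carried by 14 of the 85392 poplar gene models in the table, and 12 of these reached a mean of at least 1 FPKM (fragments scaled by transcript length and by the size of the library) on at least 1 of the 4 days sampled. These 12 genes are described here. They were measured in leaves of the wild-type poplar 84K (Populus alba x Populus glandulosa) on 4 days of a drought treatment, namely day 0 (CK in the file, the control), day 3 (DT3), day 6 (DT6) and day 9 (DT9), each with 3 libraries. All plants were of the same genotype, and the drought label is also given to the day 0 libraries. Plants kept watered on days 3, 6 or 9 are not among the samples, and each day has a batch label of its own, so drought, elapsed time and batch cannot be told apart.

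Abscisic acid is the hormone that closes stomata and sets off drought responses in leaves, and its amount depends on synthesis, on breakdown and on storage as a glucose ester. CYP707A enzymes are membrane-bound cytochrome P450 monooxygenases that hydroxylate abscisic acid, the main step of its breakdown, after which it turns into phaseic acid. In Arabidopsis the family has a few members that differ in tissue and timing, and water stress and rehydration raise the transcripts of some of them.

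Gene models are written here by the middle of their ID, as A01G002806 for Pag.A01G002806.v3.1. The ID holds a letter, A or B, and a number that follows it, and the sources used here do not say what these stand for. The 12 genes formed 5 pairs with A and B before the same number and the nearest running numbers. A04G001439 and A14G000289 were left without a partner among the 12, because their nearest B models, B04G001477 and B14G000250, lay below the level. The threshold fell between A09G000991, with a highest day mean of 2.42 FPKM on day 3, and B14G000250, with 0.95 FPKM on day 0. B04G001477 had a highest day mean of 0.69 FPKM on day 3.

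All 14 named genes shared 1 KO entry and the heme-binding term of the gene ontology (GO), as P450 enzymes do, but their GO terms set them apart from each other. The term for abscisic acid hydroxylase activity was given to 8 gene models in the whole table. All 8 were CYP707A-named, and 7 of them were among the 12. The other 5 of the 12, namely A01G002806, B01G002569, A09G000355, B09G000326 and A14G000289, carried general P450 terms such as monooxygenase activity, and of the KO and GO annotation only the KO entry names abscisic acid breakdown for them. A04G002314 and B04G002295 were the 2 models of the whole table that also had the term for abscisic acid metabolic process.

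Summed over all gene models, libraries held 684857 to 732119 FPKM, and the absolute depth is unknown. Relative depth, read from the spacing of low values, lay between 0.892 and 1.12 times that of the first library of day 0. The series text calls the replicates biological, but nothing says that they came from separate plants, so p-values measure the spread between these libraries, which may be technical. Leaf mesophyll markers (rbcS, LHCB1 and LHCB2, 27 genes) were abundant on day 0, with a sum of 15151 to 15594 FPKM in the 3 libraries, and had sums of 6631 to 7869 FPKM on day 3, 301 to 315 on day 6 and 297 to 374 on day 9. All 23 tested genes of that list fell on day 6 against day 0, where 47.6% of all genes tested were called lower. The part of this shift in the results for CYP707A genes was not tested.

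Each change is given as a difference in log2(FPKM + 1), which makes the change of genes with low values look smaller. A gene is said to have risen or fallen where limma gave an adjusted p under 0.05, over the 40736 genes tested. Because the genes were chosen by their level, a p is given only where that choice did not force a difference, that is, where the gene reached 1 FPKM on both days compared or on a day outside the comparison.

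Several courses of level over the days were seen among the 12 genes: a rise from near 0 of which most FPKM were added after day 3, a rise most of which was reached by day 3, a loss after day 3, and smaller or earlier decreases. The plot of FPKM in each library shows all of them.

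**Figure D1:**
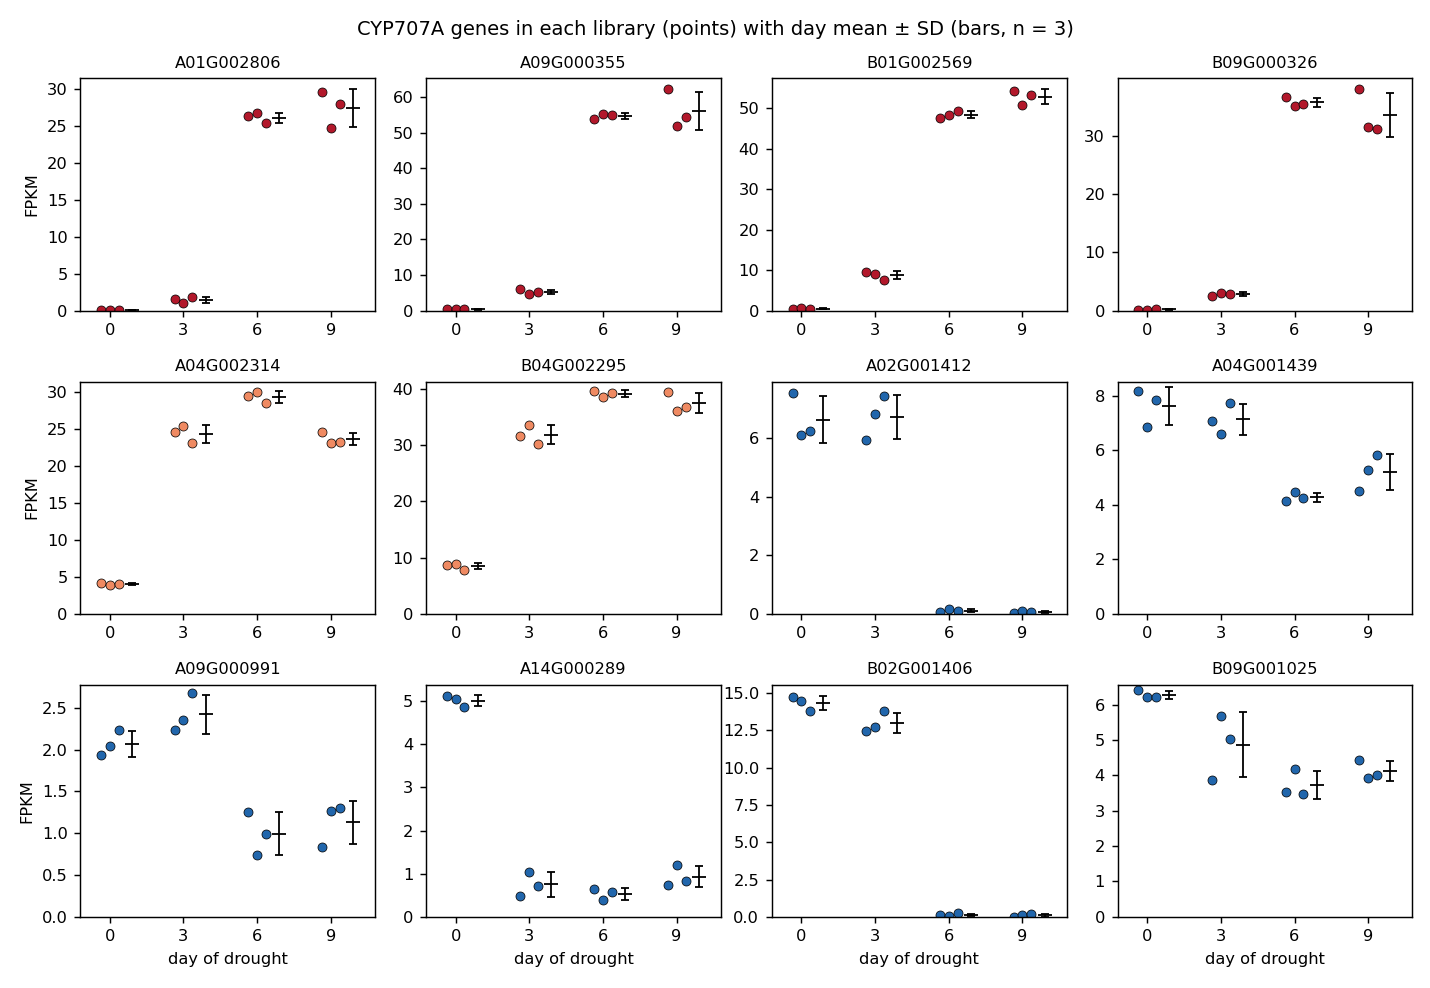
FPKM (linear axis from 0, own scale per gene) of the 12 CYP707A genes against day of drought; points are libraries, bars the mean ± SD of 3, and colours mark the genes that started near 0 (red), the pair that had risen by day 3 (orange) and those lower on day 6 than on day 0 (blue). The first row holds the 4 genes that were below 1 FPKM on day 0 and at 24.69 FPKM or more on days 6 and 9; A04G002314 and B04G002295 were already at 24.3 and 31.9 FPKM on day 3; A02G001412 and B02G001406 were near 0 on days 6 and 9.

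The largest rises were those of 4 genes that were barely detected on day 0, the pairs A01G002806 with B01G002569 and A09G000355 with B09G000326. A09G000355 had 0.32, 0.42 and 0.31 FPKM on day 0, 5.94, 4.65 and 5.13 at day 3, 53.8, 55.14 and 55.01 at day 6, and 62.1, 51.91 and 54.24 at day 9. Its libraries of days 0, 3 and 6 did not overlap, while those of days 6 and 9 did. Its log2 change was 2.20 (SE 0.08) on day 3 and 5.37 (SE 0.08) on day 6, against day 0, with adjusted p of 1.55e-09 and 1.86e-13 from limma.

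B09G000326, its partner by ID, had 0.14, 0.16 and 0.31 FPKM on day 0, 2.53, 3.1 and 2.88 at day 3, 36.77, 35.15 and 35.59 at day 6, and 38.06, 31.61 and 31.34 at day 9. It was lower than A09G000355 in every library but replicate 3 of day 0, where both had 0.31 FPKM, and followed the same course, with log2 changes against day 0 of 1.67 (SE 0.09) on day 3 and 4.94 (SE 0.09) on day 6. Adjusted p from limma were 2.67e-08 and 5.41e-13.

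B01G002569 had 0.42, 0.54 and 0.4 FPKM on day 0, 9.48, 9.07 and 7.65 at day 3, 47.67, 48.46 and 49.26 at day 6, and 54.39, 50.85 and 53.43 at day 9. No library of a later day fell within the range of an earlier one. Its log2 change of day 9 against day 6 was 0.12 (SE 0.07), which did not pass (limma adjusted p = 0.245). Its mean on day 3 was 8.73 ± 0.96 FPKM (SD, n = 3), the highest of these 4 genes on that day, and the log2 change of 2.74 (SE 0.07) had a limma adjusted p of 6.52e-11.

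A01G002806 had 0.09, 0.13 and 0.11 FPKM on day 0, 1.52, 1.04 and 1.79 at day 3, 26.3, 26.69 and 25.36 at day 6, and 29.63, 24.69 and 27.92 at day 9. It was the lowest of the 4 genes on each day. Its mean of 26.1 FPKM on day 6, against 0.11 FPKM on day 0, is a ratio of 237, which rests on day 0 values that are close to the 2 decimals of the table. The ratios of day 6 over day 0 were 156 for A09G000355, 176 for B09G000326 and 107 for B01G002569.

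In FPKM, most of this rise came after day 3. The day 3 means of A01G002806, B09G000326, A09G000355 and B01G002569 were 5.55%, 7.92%, 9.59% and 18.0% of their day 6 means. Against day 3, all 4 rose on day 6, with log2 changes of 3.48 (SE 0.10), 3.27 (SE 0.09), 3.16 (SE 0.08) and 2.35 (SE 0.07) in that order and adjusted p from limma between 3.67e-11 and 9.97e-11. In log2(FPKM + 1) the step by day 3 was the larger one for B01G002569 alone, at 2.74 against day 0. This depends on the pseudocount. Ratios of means for day 3 over day 0 and day 6 over day 3 were 19.3 and 5.55 for B01G002569. They were 15 and 10.4 for A09G000355, 14 and 12.6 for B09G000326, and 13.2 and 18 for A01G002806. The first ratio of each gene rests on a day 0 mean below 1 FPKM.

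A04G002314 and B04G002295, the pair with the term for abscisic acid metabolic process, rose by day 3. A04G002314 had 4.14, 3.83 and 4.05 FPKM on day 0, 24.52, 25.35 and 23.06 at day 3, 29.5, 30.0 and 28.49 at day 6, and 24.62, 23.05 and 23.26 at day 9. All libraries of the drought days lay above those of day 0, and day 6 lay above days 3 and 9. The log2 change of day 3 against day 0 was 2.34 (SE 0.05, limma adjusted p = 1.20e-11).

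B04G002295 had 8.71, 8.9 and 7.86 FPKM on day 0, 31.73, 33.7 and 30.3 at day 3, 39.65, 38.52 and 39.36 at day 6, and 39.56, 36.14 and 36.76 at day 9. Its log2 change of day 3 against day 0 was 1.79 (SE 0.06, limma adjusted p = 3.32e-10). Its drought libraries all lay above those of day 0, and days 6 and 9 overlapped. Both genes also rose on day 6 against day 3, by 0.26 (SE 0.05) for A04G002314 and 0.29 (SE 0.06) for B04G002295, with adjusted p of 4.78e-04 and 6.05e-04 from limma. Their day 3 means were 82.9% and 81.5% of their day 6 means.

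A02G001412 and B02G001406, which carry the abscisic acid hydroxylase term, were present on days 0 and 3 and nearly absent afterwards. B02G001406 had 14.75, 14.5 and 13.83 FPKM on day 0 and was the highest of the family there, with 12.46, 12.74 and 13.78 FPKM on day 3. It had 0.09, 0.08 and 0.23 FPKM on day 6, and 0, 0.13 and 0.21 at day 9. Every library of day 3 lay just below those of day 0, and days 6 and 9 lay far below both and overlapped with each other. Against day 0 the log2 change was -0.14 (SE 0.09) on day 3, which did not pass (limma adjusted p = 0.224), and -3.76 (SE 0.09) on day 6 (limma adjusted p = 4.15e-12).

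A02G001412 had 7.56, 6.11 and 6.24 FPKM on day 0, 5.93, 6.82 and 7.43 at day 3, 0.07, 0.15 and 0.1 at day 6, and 0.03, 0.09 and 0.07 at day 9. Its day 3 and day 0 libraries overlapped, with a log2 change of 0.02 (SE 0.10, limma adjusted p = 0.905). On day 6 it fell by 2.80 on the log2 scale against day 3 (SE 0.10, limma adjusted p = 2.88e-10). The day 6 means were 0.929% of the day 0 mean for B02G001406 and 1.61% for A02G001412.

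The other 3 genes with the hydroxylase term fell by smaller amounts on day 6. A04G001439 had 8.17, 6.85 and 7.85 FPKM on day 0, 7.08, 6.6 and 7.72 at day 3, 4.13, 4.45 and 4.23 at day 6, and 4.49, 5.27 and 5.84 at day 9. It kept 56.0% of its day 0 mean on day 6, a log2 change of -0.71 (SE 0.09, limma adjusted p = 1.91e-05). A09G000991, the lowest of the 12 by its highest mean, had 1.93 to 2.23 FPKM on day 0, 2.23 to 2.68 on day 3, 0.74 to 1.25 on day 6 and 0.83 to 1.3 on day 9, so that days 6 and 9 overlapped and lay below days 0 and 3. Its log2 change was 0.16 (SE 0.12) on day 3, which did not pass (limma adjusted p = 0.304), and -0.63 (SE 0.12) on day 6 (limma adjusted p = 4.16e-04).

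B09G001025 had 6.41, 6.22 and 6.21 FPKM on day 0, 3.86, 5.67 and 5.04 at day 3, 3.54, 4.17 and 3.47 at day 6, and 4.44, 3.92 and 4.02 at day 9. The first library of day 3 was the lowest of that day and lay within the range of day 6. It fell on day 3 against day 0 by 0.33 (SE 0.11, limma adjusted p = 0.0253). This call was lost without any 1 of the 3 libraries of day 0, at adjusted p of 0.0546 to 0.0676, or without the first library of day 3, at 0.0858. Its call on day 6 against day 3 (-0.30, limma adjusted p = 0.0243) was lost without replicate 2 (0.107) or 3 (0.0724) of day 3, without replicate 1 (0.0708) or 3 (0.0782) of day 6, and with median-ratio scaling of the libraries (-0.09, adjusted p 0.466). On day 6 against day 0 it fell by 0.63 (SE 0.11, limma adjusted p = 1.99e-04).

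A14G000289, the member outside the pairs that lacks the hydroxylase term, was at 5.12, 5.06 and 4.87 FPKM on day 0. It had 0.48, 1.05 and 0.72 FPKM on day 3, 0.65, 0.38 and 0.58 at day 6, and 0.74, 1.2 and 0.83 at day 9. It reached a mean of 1 FPKM on day 0 alone and was chosen by that value, so its comparisons with day 0 have no test. Unlike A02G001412 and B02G001406, it was already low on day 3, at 15.0% of its day 0 mean, against 101% and 90.5% for those genes. Its nearest B model, B14G000250, below the level, had 1.32, 0.78 and 0.75 FPKM on day 0 and between 0.05 and 0.3 FPKM in the later libraries.

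**Figure D2:**
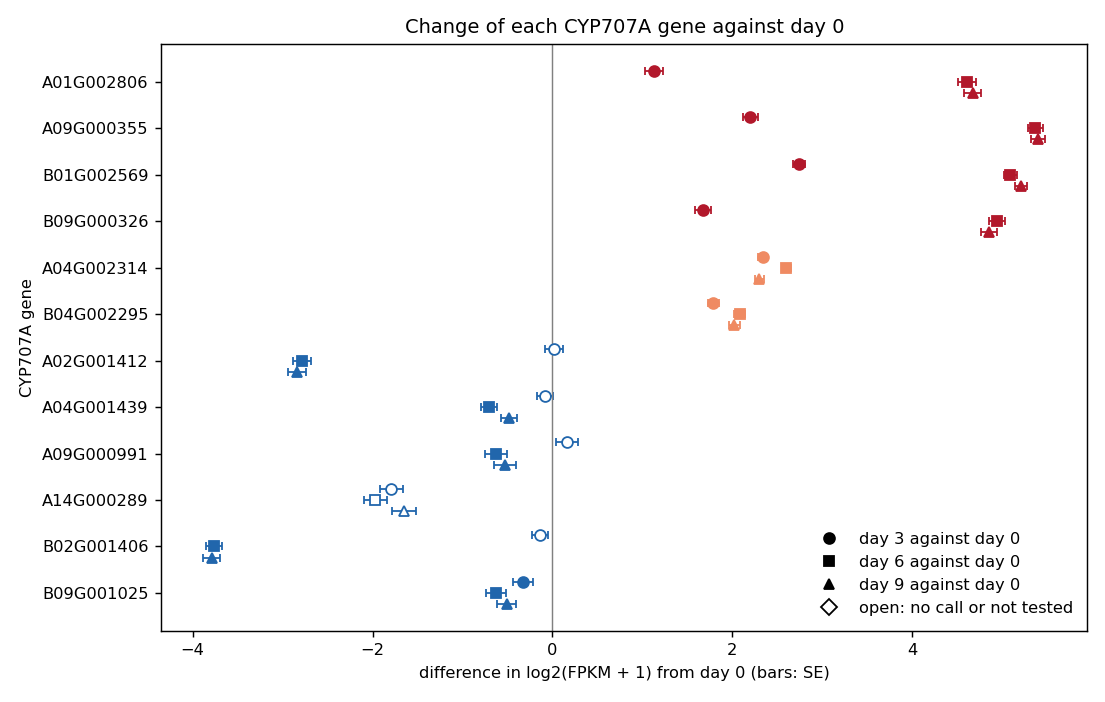
Difference in log2(FPKM + 1) from day 0 for each CYP707A gene (rows); circles are day 3, squares day 6 and triangles day 9, bars are SE, open symbols had no call or, for A14G000289, no test, and colours are those of the plot of FPKM in each library. On day 6, 6 genes lay between 2.08 and 5.37, and the other 6 between -3.76 and -0.63.

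Counted over the family, 6 of the 11 genes with a test rose and 1 fell on day 3 against day 0, where 22.6% of all genes tested were called higher and 25.2% lower. On day 6 against day 0, 6 of 11 rose and 5 fell, where 29.2% of all genes tested were called higher and 47.6% lower. On day 9 against day 0, 6 of 11 rose and 5 fell, where 30.9% of all genes tested were called higher and 46% lower. On day 6 against day 3, 6 of 12 rose and 5 fell, with 25.7% and 46.9% of all genes called. The comparisons with day 0 share its 3 libraries. The libraries of the days compared did not overlap for 8 of the 11 genes with a test on day 3 against day 0 (57.4% of all genes tested), 11 of 11 on day 6 against day 0 (79.4%), 11 of 11 on day 9 against day 0 (79.2%), 10 of 12 on day 6 against day 3 (75.1%) and 4 of 12 on day 9 against day 6 (37%). The median log2 change of day 6 against day 0 was 0.73 over the 12 genes, 2.08 over the 11 with a test and -0.21 over all genes tested. The median over 12 lies in the gap between genes that rose and genes that fell. The median over 11 leaves out A14G000289 (-1.97) and is the change of B04G002295, the smallest rise, so neither is typical of the family. Median-ratio scaling moved the median of all genes by 0.20 for day 6 and by 0.16 for day 9 against day 0, and no call of a single CYP707A gene against day 0 changed with it.

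Between days 6 and 9 most of the family had no call. Of 12 genes, 1 fell and 0 rose on day 9 against day 6, where 12.9% of all genes tested were called higher and 8.73% lower. The gene that fell was A04G002314, at 23.6 ± 0.852 FPKM on day 9, against 29.3 ± 0.769 on day 6 (SD, n = 3), a log2 change of -0.30 (SE 0.05, limma adjusted p = 0.00150). Its partner B04G002295 had a change of -0.06 (SE 0.06, limma adjusted p = 0.471). A04G001439 had a change of 0.23 (SE 0.09, limma adjusted p = 0.0973) and passed in the direction of a rise (0.31, adjusted p of 0.0305) without the first library of day 9.

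Summed over the 12 genes, the level on days 0, 3, 6 and 9 was 55.6 ± 1.89, 109 ± 2.38, 243 ± 0.603 and 243 ± 14.7 FPKM (SD, n = 3). FPKM is scaled by transcript length, so levels of different genes can be added and ordered. Whether all 12 encode CYP707A enzymes was not checked, since no sequences were used here. The 7 genes with the hydroxylase term, without the 4 that started near 0 and A14G000289, summed to 49.5 ± 1.91, 90.4 ± 2.73, 77.7 ± 0.753 and 71.8 ± 2.07 FPKM. On this deposited scale the sum of the 7 was highest on day 3. Median-ratio scaling divides libraries by factors of 1.09 to 1.1 on day 3 and 0.911 to 0.922 on day 6. With it, day 6 stands slightly above day 3, so the order of these days depends on the scale. The genes that made up the sum of all 12 changed with the day. The 6 genes that were lower on day 6 than on day 0 gave 75.5 ± 0.896%, 31.9 ± 2.43%, 4.02 ± 0.0666% and 4.79 ± 0.621% of the sum on these days. The pair A04G002314 and B04G002295 gave 22.4 ± 0.681%, 51.4 ± 1.84%, 28.2 ± 0.208% and 25.2 ± 0.458% on the same days. The 4 genes that started near 0 gave 2.01 ± 0.306%, 16.7 ± 1.22%, 67.8 ± 0.252% and 70.0 ± 1.01%. The 6 genes were grouped by level and the pair by its term for abscisic acid metabolic process. The 4 genes were grouped by lack of the hydroxylase term and a highest day mean after day 0. Levels thus entered the grouping, so the shares are a description.

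**Figure D3:**
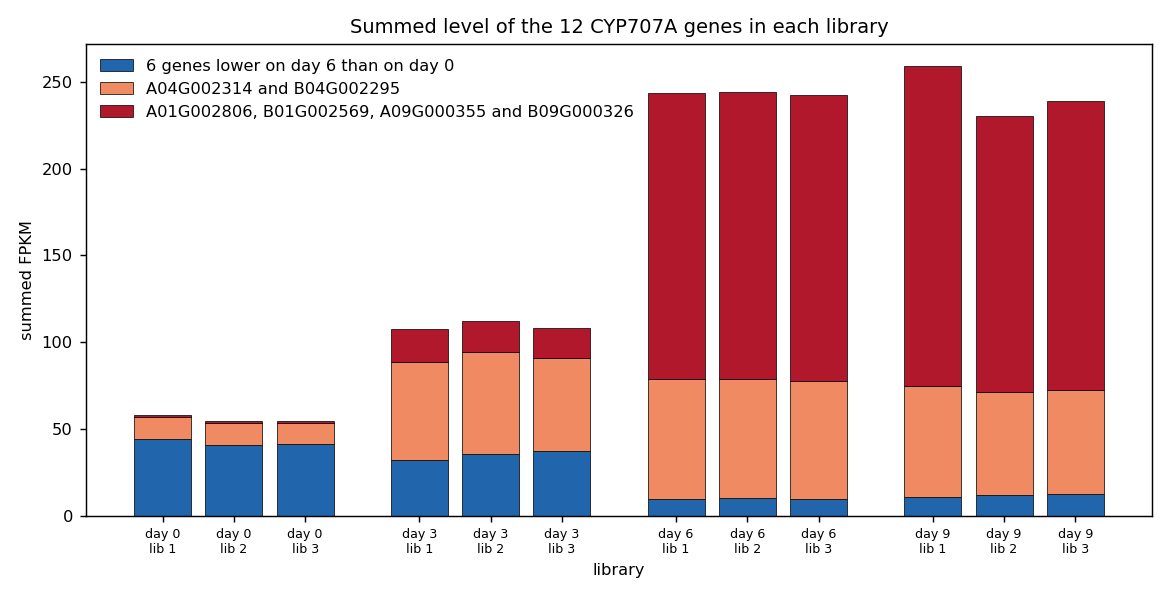
Summed FPKM of the 12 CYP707A genes in each library (bars, by day), split into the 6 genes lower on day 6 than on day 0 (blue), A04G002314 with B04G002295 (orange), and the 4 genes that started near 0 (red). The sum lay between 54.27 and 57.76 FPKM on day 0 and between 242.7 and 243.9 FPKM on day 6, when the 4 genes made up 67.6% to 68.1% of it.

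The order of the genes by level turned over accordingly. On day 0 B02G001406 stood first, apart from B04G002295, and B04G002295, A04G001439, A02G001412 and B09G001025 followed with overlapping libraries between neighbours. On day 3 B04G002295 and A04G002314 stood first and second, apart from each other and from B02G001406, which came next. On day 6 A09G000355 was first, followed by B01G002569, B04G002295, B09G000326, A04G002314 and A01G002806, each apart from the next in all libraries. On day 9 the order differed in that A01G002806 stood above A04G002314, and neither A09G000355 and B01G002569 nor B04G002295 and B09G000326 were apart.

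Within the 5 pairs, the share of the A copy in the pair's FPKM was compared over the days, with an exact permutation test of the log2 ratio over all 369600 assignments of the libraries to days and adjustment over the 5 pairs. The sources used here do not say how reads that match both copies were assigned, which can move these shares. In the pair A04G002314 and B04G002295 the A copy held 32.1 ± 1.96%, 43.2 ± 0.332%, 42.8 ± 0.906% and 38.7 ± 0.297% on days 0, 3, 6 and 9 (SD, n = 3), and the ratio differed between days (exact permutation test, adjusted p of 8.12e-04). Every library of the drought days had a higher share than every library of day 0.

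In the pair A01G002806 and B01G002569 the A copy held 14.4 ± 4.36% on day 3, 35.0 ± 0.895% on day 6 and 34.1 ± 1.31% on day 9, and the ratio differed between days (exact permutation test, adjusted p of 8.12e-04, and 0.0357 over those 3 days alone). Day 0 is left out of these shares because both copies were below 1 FPKM. In the pair A09G000355 and B09G000326, where the A copy is the higher one, its share on days 3, 6 and 9 was 64.7 ± 5.10%, 60.4 ± 0.879% and 62.5 ± 0.756%. The exact permutation test over all days gave an adjusted p of 0.0142, but 0.625 over the 3 days with both copies at 1 FPKM and 0.751 with a pseudocount of 0.1.

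In the pair A02G001412 and B02G001406 the A copy held 31.5 ± 2.16% on day 0 and 34.0 ± 1.56% on day 3, and both copies were too low afterwards for a share. Its adjusted p of 0.00325 in the exact permutation test over all days became 0.0649 with a pseudocount of 0.1. With the pseudocount of 1, the mean log2 ratio was -1.01, -0.86, -0.03 and -0.06 on days 0, 3, 6 and 9. Where both copies are near 0, that pseudocount draws the ratio to 0, so the test cannot show a change of share here. In the pair A09G000991 and B09G001025 the A copy held 24.8 ± 1.64% on day 0, 33.5 ± 3.80% on day 3 and 21.5 ± 4.98% on day 9, and the test did not pass (exact permutation test, adjusted p of 0.0676). Without the first or the second library of day 6 it passed, at adjusted p of 0.0464 and 0.0397.

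**Figure D4:**
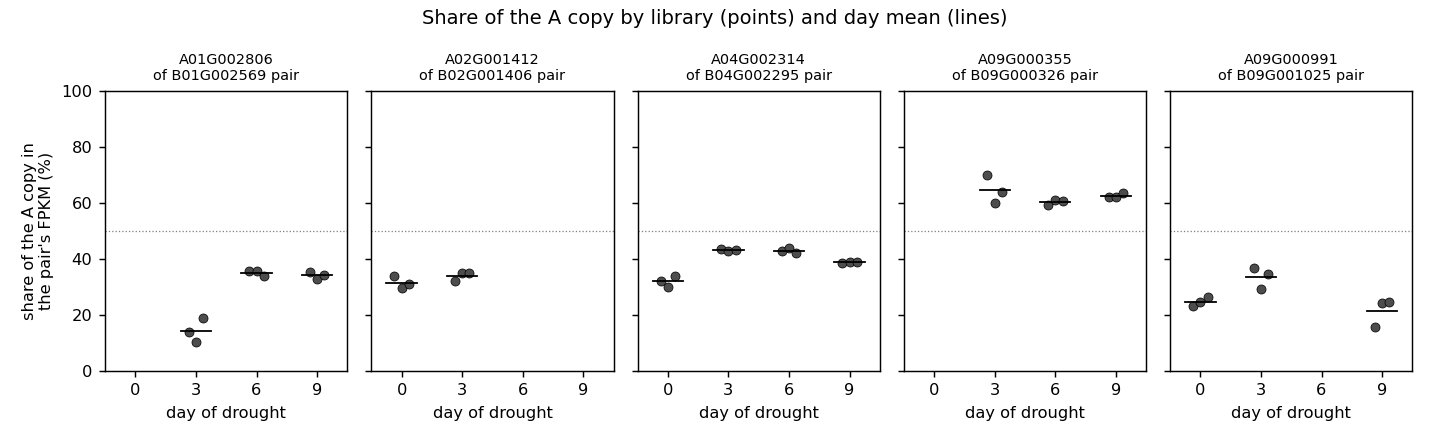
Share of the A copy in the summed FPKM of each ID pair (percent, axis from 0 to 100, dotted line at 50) against day of drought; points are libraries and lines day means, shown on days when both copies had a mean of at least 1 FPKM. The A copy of the first pair held 35.0% on day 6, against 14.4% on day 3; in the pair of A09G000355 it lay above the dotted line on each day shown.

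Other genes of abscisic acid metabolism are given for comparison, as summed FPKM of all models with the name. NCED genes, for the dioxygenase of the committed step of synthesis, summed to 121 ± 0.884, 318 ± 6.79, 497 ± 18.6 and 506 ± 20.4 FPKM on days 0, 3, 6 and 9 (SD, n = 3). The highest of them, Pag.B11G000660.v3.1, had 1.04 ± 0.273, 94.5 ± 2.30, 183 ± 7.50 and 185 ± 8.91 FPKM on the 4 days. Of 8 tested NCED genes, 4 rose and 4 fell on day 6 against day 0, where 29.2% of all genes tested were called higher and 47.6% lower. The 2 genes named AOG, for the transferase that joins glucose to abscisic acid, summed to 4.79 ± 0.421, 13.4 ± 1.41, 33.2 ± 0.876 and 31.6 ± 2.98 FPKM on the 4 days. Its higher gene, Pag.B01G003192.v3.1, had 4.74 ± 0.421, 13.3 ± 1.37, 32.1 ± 1.05 and 29.9 ± 2.98 FPKM. Both AOG genes rose on day 6 against day 0 (median log2 change 1.79), and 1 of them on day 3. Pag.B01G003192.v3.1 made up nearly all of the AOG sum on each day, so the other AOG gene rose from near 0.

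Of the other synthesis genes, all 4 AAO3 genes, for abscisic aldehyde oxidase, fell on day 6 against day 0 (median -1.33). Both ABA2 genes, for xanthoxin dehydrogenase, fell (median -0.91), and of 6 ZEP genes, for zeaxanthin epoxidase, 2 rose and 4 fell (median -0.64). VDE, for violaxanthin de-epoxidase, acts in the direction opposite to ZEP, and all 3 tested VDE genes fell (median -2.12). Over all genes tested, 29.2% were called higher and 47.6% lower in this comparison. The gene with the highest day mean in each of these lists had 0.677 FPKM on day 6, against 8.90 on day 0, for AAO3 (Pag.A09G001439.v3.1), 5.56 on day 6, against 13.6 on day 0, for ABA2 (Pag.A01G000464.v3.1), 3.35 on day 6, against 34.6 on day 0, for VDE (Pag.A13G000178.v3.1), and 79.0 on day 6, against 32.4 on day 0, for ZEP (Pag.B07G001131.v3.1).

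In the signalling chain on day 6 against day 0, 22 of 28 tested PP2C phosphatase genes rose and 3 fell (median log2 change 2.73). Of 26 ABF transcription factor genes 16 rose and 6 fell (0.61). Of 22 PYL receptor genes 2 rose and 19 fell (-1.04), and of 28 SNRK2 kinase genes 10 rose and 12 fell (0.04). Beside these counts, 29.2% of all genes tested were called higher and 47.6% lower. The gene with the highest day mean was Pag.A09G000383.v3.1 for PP2C, with means of 2.34, 91.7, 203 and 211 FPKM on the 4 days, Pag.B14G000244.v3.1 for ABF, with 22.5, 70.2, 74.3 and 79.7, Pag.A14G000958.v3.1 for PYL, with 23.8, 49.9, 23.2 and 28.1, and Pag.A04G001422.v3.1 for SNRK2, with 62.6, 32.5, 13.0 and 16.3. Both PP2C and CYP707A transcripts are raised by abscisic acid in Arabidopsis, and PYL proteins bind the hormone.

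Cytochrome P450 genes with other KO names numbered 331, of which 142 were tested. On day 6 against day 0, 45 of them rose and 80 fell, with a median log2 change of -0.62. Placed in 1 list of 154 tested P450 genes ordered by change on day 6, A09G000355, B01G002569, B09G000326 and A01G002806 held ranks 1 to 4. A04G002314 held rank 10 and B04G002295 rank 15. B02G001406 stood at rank 151, A02G001412 at 143 and A14G000289 at 134. A04G001439, A09G000991 and B09G001025 lay near the middle, at ranks 88, 79 and 78. Of 30 tested P450 genes of other hormones, 9 rose and 18 fell on day 6 against day 0, where 29.2% of all genes tested were called higher and 47.6% lower. By name, 0 of 12 CYP90 genes, 0 of 2 CYP85A genes and 0 of 2 CYP734A1 genes of brassinosteroid metabolism rose, and 12, 1 and 2 of them fell. Of the genes that oxidise a jasmonate conjugate, 4 of 4 CYP94B genes rose, while 2 of 6 CYP94C1 genes rose and 3 fell. Of 4 CYP714 genes, which act on gibberellins, 3 rose and 0 fell.

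CYP707A transcripts are made in guard cells and vascular tissue as well as elsewhere in Arabidopsis leaves, and in RNA of whole leaves fewer cells of a type and less RNA per cell cannot be told apart. Of 26 genes on the guard cell list 7 were tested, and 2 rose and 4 fell on day 6 against day 0. Over all genes tested, 29.2% were called higher and 47.6% lower. The summed level of the list was 42.5 to 50.2 FPKM on day 6 and 39.1 to 46.8 on day 9, against 27.5 to 33.1 FPKM on day 0. Within it, SLAC1-type channel genes summed to 43 ± 4.16 FPKM on day 6, against 9.44 ± 1.56 on day 0 (SD, n = 3), while all 4 FAMA genes fell, to a sum of 2.07 to 2.20 FPKM, against 19.1 to 21.7 on day 0. SPCH genes were listed at 0 in all libraries of days 6 and 9 and summed to at most 0.03 FPKM on days 0 and 3. Of 50 genes on the vascular list (XCP and IRX names) 31 were tested, and 3 rose and 24 fell on day 6, beside the same shares over all genes. The vascular list summed to 163 to 167 FPKM on day 6, against 294 to 316 on day 0. The part of these marker changes in the results was not tested either.

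For the 3 genes with the highest day means, the KO-named genes with the most similar course were found by Pearson's r of log2(FPKM + 1) over the 12 libraries, among 13817 genes with a mean of at least 5 FPKM on some day. The libraries fall into 4 days, so a high r mainly says that the day means ran alike, and it carries no test. Nearest to A09G000355 were an acylglycerol lipase (MGLL, Pag.A12G001056.v3.1, r 0.9995), a monodehydroascorbate reductase (Pag.A06G001859.v3.1, r 0.9993) and a malic enzyme (maeB, Pag.B01G001994.v3.1, r 0.9992). Nearest to B01G002569 were a polyphenol oxidase (Pag.B01G004078.v3.1, r 0.9994), a protein phosphatase (PTC2_3, Pag.A14G001161.v3.1, r 0.9990) and a gene named SPG20 (Pag.A09G001276.v3.1, r 0.9988).

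Nearest to B04G002295 were a pair of HD-ZIP transcription factor genes (Pag.B14G000966.v3.1, r 0.9980, and Pag.A14G001024.v3.1, r 0.9976) and the gene Pag.A02G002608.v3.1 (NXN, for nucleoredoxin, r 0.9973). The first of these had means of 5.13, 226, 470 and 368 FPKM on days 0, 3, 6 and 9, a larger range than that of B04G002295. For B02G001406, added to this search after its values were seen, the nearest was HMGBP Pag.B05G002578.v3.1 (r 0.9992), with means of 212, 207, 20.9 and 22.1 FPKM on the same days.

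The authors' deposited table given for day 3, which is identical to the one given for day 6, listed 7 of the 12 genes among its 5882, or 6.89% of all gene models. It held the 6 genes that were higher on day 3 and A14G000289. A02G001412 and B02G001406, at 1.61% and 0.929% of their day 0 means on day 6, were not in it. Which of the 2 days the list belongs to is not stated. The authors' deposited table for day 9 listed 9 of the 12 among its 18590, or 21.8% of all gene models, and left out A04G001439, A09G000991 and B09G001025. Both shares are over all gene models, of which 35987 to 37658 were at 0 FPKM in a given library. The 12 genes were chosen by level, so their listing and these shares are not like for like. The sources used here do not state how genes were picked for these tables.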

How the data were processed

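Leaf RNA of 12 libraries, 3 for each of 4 days, was measured. The values are FPKM that the authors deposited, as the file names state, in 1 table of 85392 gene models. The sources used here do not give the aligner, genome build or counting program. The authors' day means equalled those of the libraries. Genes were found by the KO name CYP707A and a mean of at least 1 FPKM on any day. The members and lists were chosen with earlier results of these data known.

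Values were taken as log2(FPKM + 1) for the 40736 genes with at least 1 FPKM in at least 3 libraries. With limma 3.58.1 (R 4.3.3; intensity trend, robust moderation) a linear model gave each day its own mean over the 12 libraries, and each comparison had its own Benjamini-Hochberg adjustment. The procedure was tested on simulated data. The exact permutation tests of copy ratios used a pseudocount of 1 and a statistic over all days that has no direction. Alternatives covered the pseudocount, the filter, scaling, variance moderation, the replicate number and each library left out. Values in every library are given for genes with a mean of at least 5 FPKM on any day. Each pathway list is represented by its counts and by its gene with the highest day mean. Lists for seed genes matched no KO name, and CYP735A had no tested gene. Tables and figures were made in Python 3.11.15 (matplotlib 3.10.9, pandas 2.3.3, numpy 2.4.6).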

Additional observations from a re-analysis of the deposited data

Results flagged for a closer look

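The change against day 0 differed between days by limma's test of day 6 against day 3 for 11 of the 12 genes, where 25.7% of all genes tested were called higher and 46.9% lower, so a call was the common outcome. The log2 difference was 3.48 for A01G002806, 3.27 for B09G000326, 3.16 for A09G000355, 2.35 for B01G002569, 0.29 for B04G002295 and 0.26 for A04G002314. It was -3.63 for B02G001406, -2.80 for A02G001412, -0.78 for A09G000991, -0.62 for A04G001439 and -0.30 for B09G001025, the last of which depends on single libraries. Between days 9 and 6 the difference passed for A04G002314, at -0.30.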

How the results depend on the processing

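Under 18 alternatives, 999 of 1009 single-gene results kept their side of the threshold, and the 10 that did not belong to B09G001025 and A04G001439, given above. The sign changed in 7, all of them without a call in either setting and with changes of at most 0.05 in size: A02G001412 on day 3 against day 0, and A09G000355 and B02G001406 on day 9 against day 6. Only genes with a mean of at least 5 FPKM over all libraries left fewer members by construction: 0 fell on day 3 against day 0, and 2 each on day 6 and day 9 against day 0 and on day 6 against day 3. The genes called in all were then 18796 on day 6 and 18858 on day 9 against day 0 and 17938 on day 6 against day 3, against 31292, 31317 and 29560 with the usual filter. With 1 library left out, the genes that fell on day 3 numbered 0 to 1, and those that rose on day 9 against day 6 numbered 0 to 1. Median-ratio scaling moved the summed level to 51 FPKM on day 0, 99.8 on day 3 and 266 on day 6. For copy ratios, chosen after seeing the data, the adjusted p in the exact permutation test was 0.0649 for A02G001412 with B02G001406 and 0.751 for A09G000355 with B09G000326 with a pseudocount of 0.1, and 0.625 for the second of these over days with both copies at 1 FPKM. That restriction leaves 2 days and 20 assignments for the A02G001412 pair, which cannot pass. With 1 library left out, the A09G000991 pair gave 0.0397 to 0.252. A level of 0.5 or 5 FPKM in place of 1 gave 14 or 11 genes.

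Same-numbered libraries of different days did not deviate together (r of -0.0268 to 0.0381 over 18 pairs, and -0.0321 to 0.0380 over 36 pairs of unlike number). Whether they share an origin is not stated, and this check cannot show it. With the replicate block, 6 genes rose and 1 fell on day 3, and 6 rose and 5 fell on day 6 and on day 9, against day 0, as without it, and no call of a single gene changed.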
